A study of Mus musculus with 6 samples.

Results

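The 37 genes described here encode the aminoacyl-tRNA synthetases of the mouse, 20 of the cytosol and 17 of the mitochondrion. They were taken by symbol from the 34714 gene symbols of a count table of gastrocnemius (Gas) muscle, with symbols ending in 2 counted as mitochondrial, so the rule itself uses no measured value. The set was, however, chosen with earlier results of these data known, so its choice was not independent of them. The study examined how miR-92b, a microRNA expressed in skeletal muscle, bears on exercise capacity and on glycogen and lactate handling. RNA from Gas muscle of 3 wild-type (WT) mice and 3 mice with a global knockout of miR-92b (M92KO) was sequenced, with 1 library for each mouse. All 6 mice were 8 weeks old and untreated. The labels give the M92KO strain a C57BL/6JGpt background, and the study's methods describe male M92KO mice and age-matched C57BL/6 mice as WT controls. The deletion was present in every tissue and not only in muscle, and whether the groups were littermates is not given in the sources used here. Since whole muscle was sequenced, fewer cells of a type and less RNA per cell cannot be told apart.

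An aminoacyl-tRNA synthetase joins its amino acid to the tRNAs that read the codons of that amino acid, and so sets which residue the ribosome adds. The cytosolic enzymes feed the ribosomes that make the contractile and metabolic proteins of the fibre, whereas the mitochondrial enzymes are nuclear-encoded, imported, and serve the few proteins made inside the organelle. Several cytosolic synthetases are held in a multi-synthetase complex. Genes of cytosolic synthetases are also known targets of the transcription factor ATF4, which is translated when amino acids are scarce or the endoplasmic reticulum is stressed. By fold, the enzymes fall into class I and class II.

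The libraries held between 33160508 and 48209846 counts, with the 3 smallest totals in M92KO. Acta1 and Myh4, the skeletal actin and a fast myosin, reached at least 25633 and 22933 CPM (counts scaled to library size with edgeR's TMM factors) in every library. These genes do not tell Gas from other fast muscles. Among 15788 genes tested with edgeR's quasi-likelihood test, 0 had a Benjamini-Hochberg adjusted p-value under 0.05 and the smallest was 0.124, whereas 1955 had an unadjusted p-value under 0.05 and DESeq2 called 322. The M92KO replicate 1 library stood apart from the other M92KO libraries, with a chi-square per degree of freedom of 57.4 against 10.9 between the other two and 12.8 to 29.6 between WT libraries, and 399 genes passed the adjusted threshold without it. Markers of fibroblasts had a lower summed level in M92KO muscle (1226 to 1686 CPM) than in WT muscle (1793 to 2361 CPM), with 3 of 10 markers lower at an unadjusted p-value under 0.05. Of the other lists, muscle fibre markers showed 1 of 14 higher, endothelial markers 2 of 10 lower, leukocyte markers 2 of 9 lower, Schwann cell markers 3 of 8 lower, satellite cell markers 2 of 8 in each direction, and fat and red cell markers 0 of 7 and 0 of 5. Over all genes tested, 5.47% were higher and 6.92% lower at this threshold. The fat and red cell markers had median log2 fold changes (M92KO over WT) of 0.62 and 0.66, though their summed levels overlapped between the genotypes. None of the markers in these lists was at 0 in all libraries. The deleted microRNA itself was not analysed here, so the genotype labels were not checked against it.

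miR-92b recognizes messages through bases 2 to 8 of its mature strands, the seed, and the synthetase genes were searched for matches to them. The mature sequences from RefSeq (GRCm38.p6, minus strand, chr3:89227126-89227147 for the 3p arm and chr3:89227165-89227188 for the 5p arm) are shown with the seed in capitals, since these bases define the matches searched for.
miR-92b-3p: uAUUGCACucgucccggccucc
miR-92b-5p: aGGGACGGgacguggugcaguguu

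A match was the complement of bases 2 to 8, or that of bases 2 to 7 followed by an A. Such matches, of at least 7 letters, in annotated 3′-UTRs of GENCODE M21 were few among the synthetases. Those to miR-92b-3p were present in 3 of 37 members (8.11%), against 1978 of 13664 tested genes (14.5%). Those to miR-92b-5p were present in 2 of 37 members (5.41%), against 810 of 13664 (5.93%). The 3′-UTRs of the members were also shorter, with a median of 527 bases against 1188. The 5 sites, each in 30 bases of the message strand with the match in capitals, lie in Aars (alanine, cytosolic), Vars2 (valine) and Mars2 (methionine) for the 3p arm and in Sars2 (serine) and Tars2 (threonine) for the 5p arm.
Aars: aaaaggaccatGTGCAATActtggtgatgt
Vars2: gcttgctattgGTGCAATgggacctcagag
Mars2: ttttcacagttTGCAATAgtctgagaagaa
Sars2: ccggaagaaggCCGTCCCAgcttcttcttc
Tars2: atgagagccgtCCGTCCCtttccacgggac

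The sites of Aars and Sars2 hold the complement of bases 2 to 8 followed by an A, a run of 8 letters. That A was counted whichever base the microRNA starts with, a U in miR-92b-3p and an A in miR-92b-5p. The other sites hold 7 letters, in Mars2 the complement of bases 2 to 7 and an A. The log2 fold changes (M92KO over WT) of these genes were 0.14 for Aars (SE 0.079), -0.10 for Vars2 (SE 0.080), -0.02 for Mars2 (SE 0.11), -0.04 for Sars2 (SE 0.11) and 0.02 for Tars2 (SE 0.074). Each 95% interval included 0. Aars shares 1326 exon bases with another gene on the same strand, and reads from these bases cannot be told apart.

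All 37 members passed the filter on low counts, and their levels were compared as CPM per kilobase of annotated transcript, averaged over the 6 libraries. The length was that of the longest annotated protein-coding transcript of each gene. Which transcripts the muscle expressed was not determined, so the order of genes and the comparison of pairs depend on this choice. Cytosolic synthetases ranged from 11.1 to 58.8 CPM per kilobase (median 27.4), and mitochondrial ones from 1.02 to 21.6 (median 9.01). The highest level was that of Eprs, a fused enzyme for glutamate and proline, at 58.8 ± 7.13 CPM per kilobase (SD, n = 6). It was followed by Nars (asparagine, 52.6 ± 3.35), Kars (lysine, 46.7 ± 1.89), Dars (aspartate, 46.6 ± 2.02) and Sars (serine, 43.4 ± 4.11). Each of these neighbours in the order overlapped in its range over libraries, whereas Sars lay apart from Mars1 (methionine), which came next at 35.0 ± 2.63 CPM per kilobase. Below Mars1 the order ran through Gars (glycine), Farsb (the beta subunit for phenylalanine), Rars (arginine), Qars (glutamine), Aars, Yars (tyrosine) and Iars (isoleucine), from 32.0 to 22.02 CPM per kilobase, with every neighbour overlapping the next.

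The highest mitochondrial level was that of Lars2 (leucine), at 21.6 ± 1.81 CPM per kilobase, with a range that overlapped those of Iars above it and of Hars (histidine, 20.9 ± 0.553) below it. Iars2 (isoleucine, 16.1 ± 0.763) and Fars2 (phenylalanine, 14.6 ± 0.815) stood among the lower cytosolic genes Wars (tryptophan), Cars (cysteine), Tars (threonine), Farsa (the alpha subunit for phenylalanine) and Lars (leucine), which spanned 14.7 to 17.6 CPM per kilobase. Vars (valine), at 11.1 ± 0.745, was the lowest cytosolic gene and overlapped its neighbours Tars2 and Cars2 (cysteine). Aars2 (alanine), Hars2 (histidine), Rars2 (arginine), Yars2 (tyrosine) and Ears2 (glutamate) lay between 11.6 and 7.11 CPM per kilobase, and Vars2, Nars2 (asparagine), Wars2 (tryptophan), Pars2 (proline) and Mars2 lay below them. Mars2 was lowest at 1.02 ± 0.0759 CPM per kilobase, on an annotated transcript of 11294 bases whose length lowers a value per kilobase. In 18 pairs of a cytosolic and a mitochondrial gene for the same amino acid, the cytosolic level per kilobase was the higher in 17. Lars and Lars2 were the exception, at 14.7 and 21.6 CPM per kilobase.

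**Figure D1:**
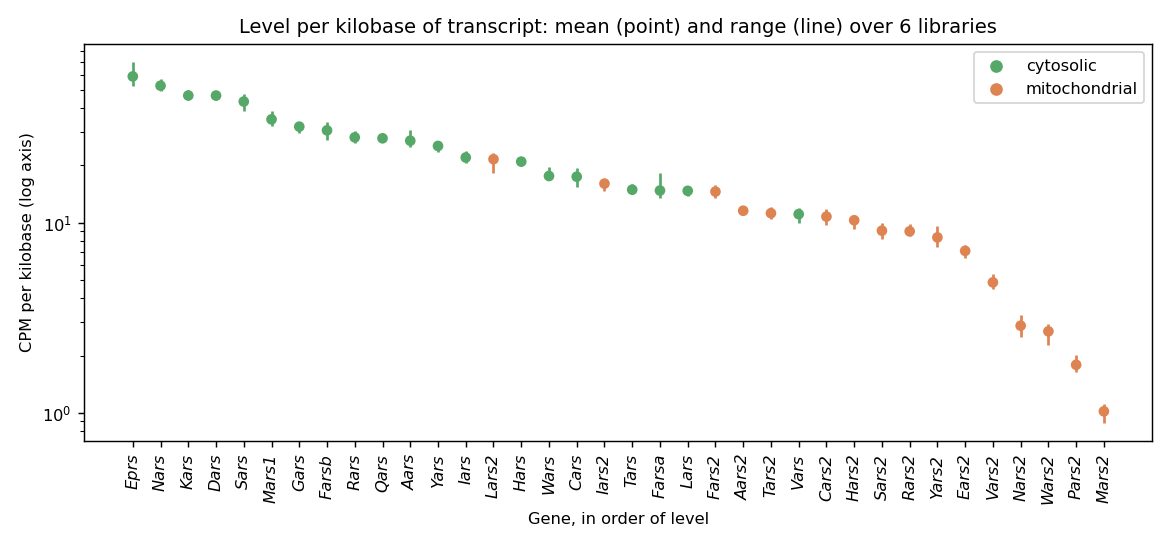
Levels of the synthetase genes (1 mitochondrial gene not shown) in CPM per kilobase of transcript on a log axis, as the mean (point) and the lowest and highest value (line) over 6 libraries, in order of level. Cytosolic genes take the 13 highest places, from Eprs at 58.8, and the lowest places, below Vars at 11.1, are all mitochondrial, down to Mars2 at 1.02.

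The comparison of M92KO with WT Gas asked whether the genotype moved the synthetase messages. None of the 37 members passed an adjusted p-value of 0.05 in edgeR's quasi-likelihood test, and neither did any other gene (0% of 15788). The cytosolic genes had slightly higher values in M92KO muscle. In 19 of the 20 the log2 fold change was above 0, against 50% of all genes tested, and the median was 0.09 (range -0.05 to 0.25) against -8.1e-05 over all genes. Vars was the exception at -0.05 (SE 0.083). At an unadjusted p-value under 0.05, 4 of 20 cytosolic genes (20%) were higher, against 5.47% of all genes tested, and 0 were lower, against 6.92%. The 4 genes were Sars, Mars1, Eprs and Nars. All 3 M92KO values lay above all 3 WT values in 8 of 20 cytosolic genes (40%), against 8.77% of all genes, and the opposite held in 0, against 9.58%. The other genes among these 8 were Cars, Yars, Lars and Hars.

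The mitochondrial genes lay on both sides of 0. Their log2 fold change was above 0 in 8 of 17, with a median of -0.02 and a range from -0.10 in Vars2 to 0.19 in Cars2. At an unadjusted p-value under 0.05, 1 of 17 (5.88%), Cars2, was higher, against 5.47% of all genes tested, and 0 were lower, against 6.92%. Groups without overlap were seen in Cars2 and Aars2 (11.8%), both higher in M92KO muscle, against 8.77% of all genes. The opposite held in 0, against 9.58%. The difference between the cytosolic and the mitochondrial genes was not tested as a group, since members are not replicates of a condition.

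These counts varied with the libraries and the correction used. Without M92KO replicate 1, 7 cytosolic genes were higher at an unadjusted p-value under 0.05, against 9.62% of all genes tested, 15 of 20 (75%) had groups without overlap, against 19.0% of all genes, and 4 of 17 mitochondrial genes (23.5%) had them. With offsets for GC content and transcript length, 9 cytosolic genes were higher, against 6.53% of all genes. Without WT replicate 1 or WT replicate 2 the count was 1 of 20 (5%), Sars in both, against 4.16% and 3.32% of all genes. Without WT replicate 3, M92KO replicate 2 or M92KO replicate 3 it was 2 of 20 (10%), against 3.46%, 4.38% and 4.64%.

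**Figure D2:**
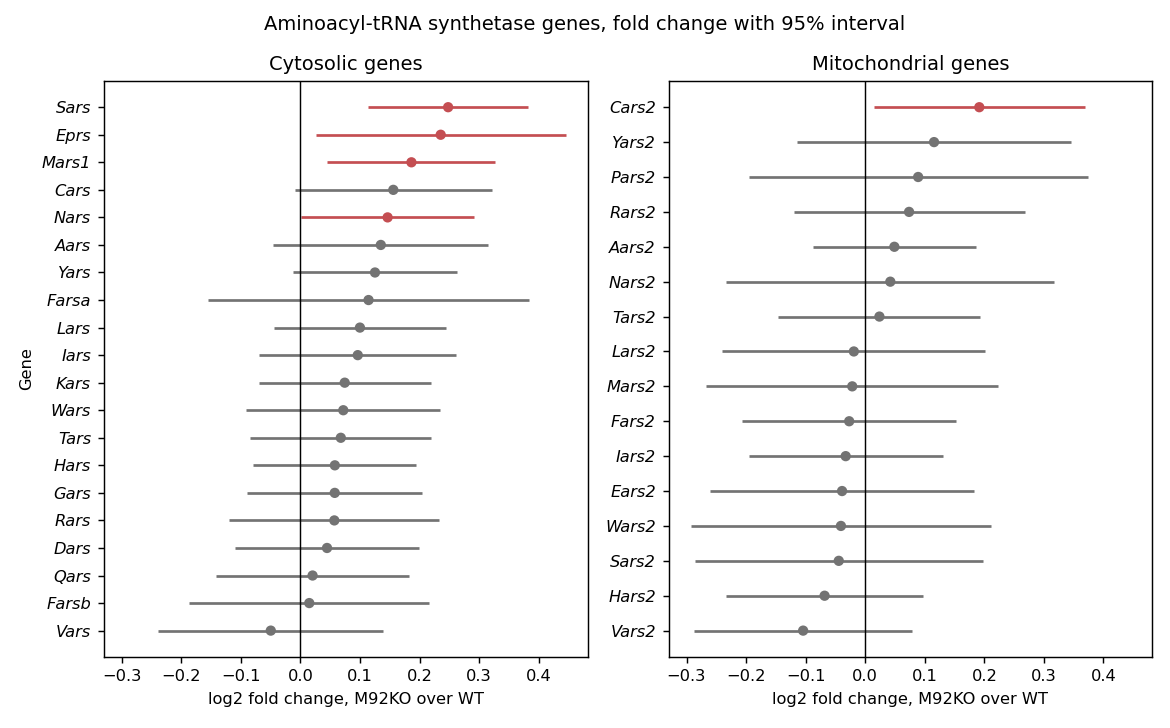
Log2 fold change (M92KO over WT) of the 20 cytosolic genes and of the mitochondrial genes (1 not shown) with the 95% interval from edgeR, sorted by size, with an unadjusted p-value under 0.05 in red. Points lie right of 0 for 19 of the cytosolic genes and on both sides of 0 for the mitochondrial genes.

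Summed over the 20 cytosolic genes, the level was 1739, 1760 and 1765 CPM in the WT libraries and 1834, 1960 and 1956 CPM in the M92KO libraries. The lowest M92KO sum, that of replicate 1, lay above the highest WT sum, and the group values were 1754 ± 13.9 and 1917 ± 71.4 CPM (SD, n = 3). The sum gives most weight to abundant genes, such as Eprs (means of 265 and 312 CPM) and Sars (142 and 168 CPM), which were among the genes named above. The median of the 20 genes, each relative to its WT mean, was 0.988, 1.00 and 1.01 in WT and 1.03, 1.09 and 1.07 in M92KO libraries. Summed over the 17 mitochondrial genes, the level was 484, 493 and 483 CPM in WT and 468, 487 and 505 CPM in M92KO libraries. Here the groups overlapped, with means of 487 ± 5.70 and 487 ± 18.3 CPM. The ratio of the cytosolic to the mitochondrial sum within each library, which does not depend on the scaling between libraries, was 3.59, 3.57 and 3.65 in WT and 3.92, 4.02 and 3.87 in M92KO muscle. All M92KO ratios were above all WT ratios (3.94 ± 0.0772 against 3.60 ± 0.0443). No p-value is given for a score over the members. The summed fibroblast markers also did not overlap between the genotypes, in the opposite direction, and their part in these values was not tested.

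**Figure D3:**
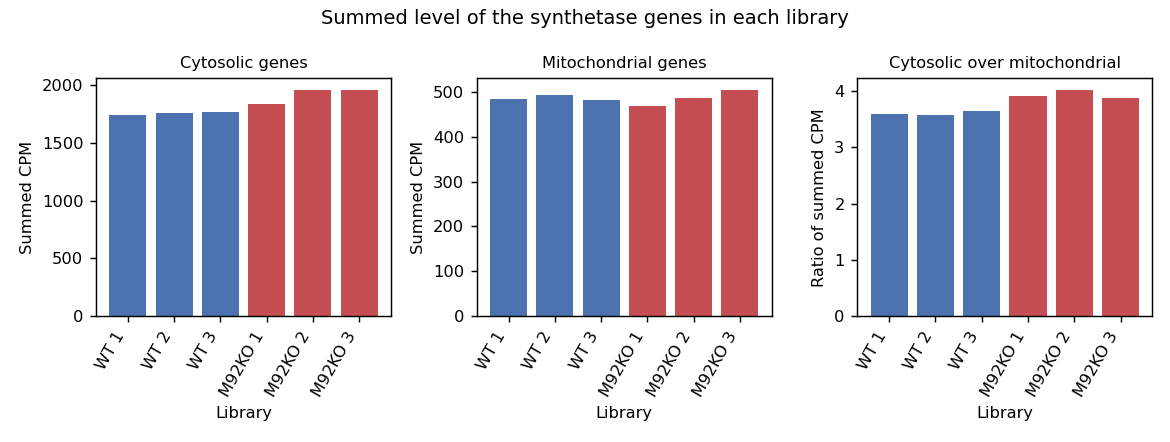
Summed CPM of the 20 cytosolic genes, of the 17 mitochondrial genes, and the ratio of the sums, 1 bar for each library, with axes from 0. The cytosolic sum and the ratio are higher in every M92KO library than in every WT library, whereas the mitochondrial sums overlap.

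Sars, the cytosolic seryl-tRNA synthetase (GRCm38, chr3:108424865-108445209, minus strand), had the smallest p-value of the members. Its levels were 143, 143 and 139 CPM in WT and 167, 167 and 170 CPM in M92KO muscle. Every M92KO library was about the same distance above the WT libraries, and the group values were 142 ± 2.32 and 168 ± 1.87 CPM. The log2 fold change was 0.25 (SE 0.059, 95% interval 0.11 to 0.38), with an adjusted p-value of 0.188. DESeq2 gave an adjusted p-value of 0.0268, which made Sars the single member called by that tool, against 2.41% of the 13335 genes it adjusted (1.06% higher in M92KO muscle). The exact two-sided permutation test gave p = 0.1, the smallest value that 3 against 3 libraries allow. Sars had an unadjusted p-value under 0.05 in each of the 6 fits that left out 1 library. Without M92KO replicate 1 its edgeR adjusted p-value was 0.0404.

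Mars1, the cytosolic methionyl-tRNA synthetase and a member of the multi-synthetase complex (chr10:127296221-127311786, minus strand), was at 96.6, 96.1 and 98.0 CPM in WT and at 114, 106 and 110 CPM in M92KO muscle. The groups did not overlap. The log2 fold change was 0.19 (SE 0.062, 95% interval 0.05 to 0.33; adjusted p = 0.294), and its unadjusted p-value stayed under 0.05 except without WT replicate 1 or WT replicate 2. An exon of Mars1 shares 68 bases with Ddit3 on the opposite strand. Ddit3, which encodes the stress-induced factor CHOP, was at 34.4, 23.6 and 23.8 CPM in WT and 37.5, 33.4 and 34.0 CPM in M92KO muscle. Its groups overlapped through WT replicate 1. As the strand setting of the counting is not given in the sources used here, reads from the shared bases cannot be told apart.

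Eprs, the synthetase for glutamate and proline of the complex (chr1:185363044-185428360, plus strand), was at 257, 269 and 270 CPM in WT and at 272, 343 and 321 CPM in M92KO muscle. M92KO replicate 1 lay just above the WT values and the other M92KO libraries well above them. The log2 fold change was 0.24 (SE 0.092, 95% interval 0.03 to 0.45; adjusted p = 0.362). It was 0.33 without M92KO replicate 1, with an adjusted p-value of 0.0292. Of the 6 fits that left out 1 library, that was the single fit with an unadjusted p-value under 0.05. Nars, the cytosolic asparaginyl-tRNA synthetase, was at 137, 138 and 136 CPM in WT and 143, 155 and 156 CPM in M92KO muscle. The groups did not overlap, with M92KO replicate 1 again nearest to WT. Its log2 fold change was 0.15 (SE 0.064, 95% interval 0.00065 to 0.29; adjusted p = 0.400), and its unadjusted p-value too was under 0.05 only without M92KO replicate 1 among those 6 fits.

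Cars2, the mitochondrial cysteinyl-tRNA synthetase (chr8:11513977-11550783, minus strand), was at 18.8, 20.2 and 18.4 CPM in WT and 20.95, 22.5 and 22.02 CPM in M92KO muscle. All M92KO values were above all WT values, by less than 1 CPM between the nearest libraries. The log2 fold change was 0.19 (SE 0.078, 95% interval 0.01 to 0.37; adjusted p = 0.377), and of the 6 fits that left out 1 library, those without M92KO replicate 1 and without WT replicate 2 kept the unadjusted p-value under 0.05. Cars2 shares 422 exon bases with a protein-coding gene on the opposite strand. Its cytosolic counterpart Cars was at 49.6, 54.1 and 55.9 CPM in WT and 62.2, 57.7 and 58.0 CPM in M92KO muscle. Those groups did not overlap either, and the log2 fold change was 0.16 (SE 0.072; adjusted p = 0.433).

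Gars and Kars are the 2 genes whose products serve both compartments from a single locus. Gars, the glycyl-tRNA synthetase, was at 70.7, 76.5 and 76.8 CPM in WT and 79.1, 77.2 and 76.8 CPM in M92KO muscle, with overlapping groups. Its log2 fold change was 0.06 (95% interval -0.09 to 0.20; adjusted p = 0.772). Kars, the lysyl-tRNA synthetase of the complex, was at 96.5, 100.01 and 102 CPM in WT and 102, 109 and 104 CPM in M92KO muscle, which also overlapped. Its log2 fold change was 0.07 (95% interval -0.07 to 0.22; adjusted p = 0.694).

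The most abundant mitochondrial genes had intervals that included 0. Lars2 was at 84.2, 88.2 and 81.4 CPM in WT and 71.3, 88.8 and 90.3 CPM in M92KO muscle, so that the lowest and the highest libraries were both M92KO. Its log2 fold change was -0.02 (95% interval -0.24 to 0.20). Iars2 was at 87.2, 92.5 and 86.9 CPM in WT and 80.6, 88.6 and 91.3 CPM in M92KO muscle, with M92KO replicate 1 again the lowest library and a log2 fold change of -0.03 (95% interval -0.20 to 0.13). Fars2 was at 32.1, 31.3 and 30.3 CPM in WT and 29.7, 28.8 and 33.6 CPM in M92KO muscle. Its groups overlapped, and its log2 fold change was -0.03 (95% interval -0.21 to 0.15). The sign of all 3 turned in at least 1 of the other fits. Iars2 and Fars2 also share exon bases with genes on the opposite strand.

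**Figure D4:**
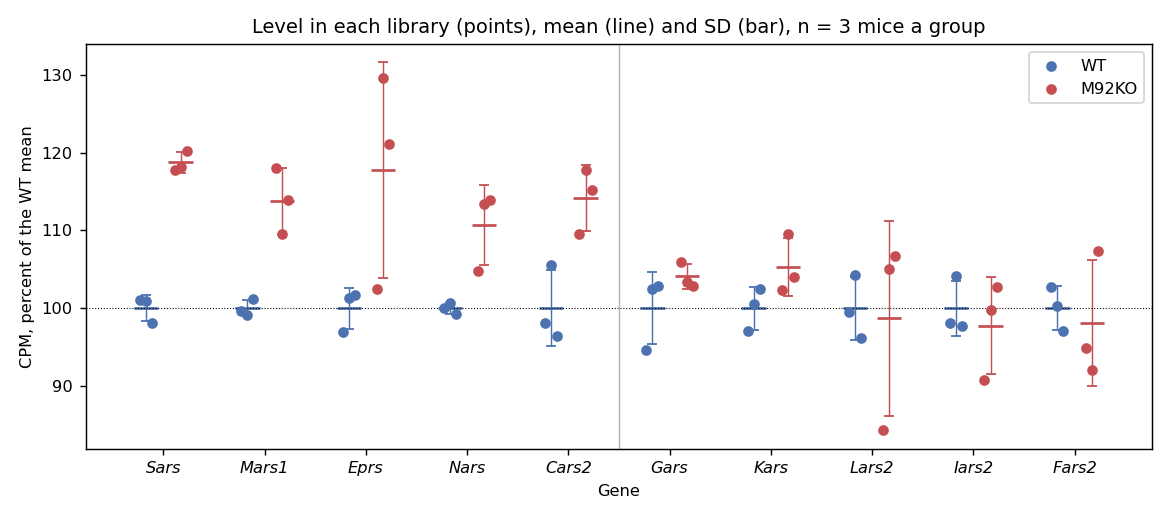
CPM of the 10 members described by library, as percent of the WT mean, with points for libraries, a line for the mean and a bar for the SD (n = 3 mice a group). The 5 genes on the left have all M92KO points above all WT points, and the 5 on the right have overlapping groups, down to 71.3 CPM for Lars2 in M92KO replicate 1.

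Among the other cytosolic genes, the log2 fold change was 0.13 for Yars (SE 0.061), 0.10 for Lars (SE 0.063) and 0.06 for Hars (SE 0.060), each with groups that did not overlap and with a 95% interval that included 0. Aars, Iars, Farsa, Wars, Tars, Rars, Dars, Qars, Farsb and Vars had overlapping groups and log2 fold changes between -0.05 and 0.14. Hars and Hars2 lie head to head and share 195 exon bases on opposite strands, with log2 fold changes of 0.06 and -0.07. Among the other mitochondrial genes, Aars2 had groups that did not overlap with a log2 fold change of 0.05 (SE 0.060). Yars2, Pars2, Rars2, Nars2 and Tars2 had positive values up to 0.12, and Mars2, Ears2, Wars2, Sars2, Hars2 and Vars2 negative ones down to -0.10, all with overlapping groups. In total 15 of the 37 members share exon bases with another annotated gene.

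Members of the multi-synthetase complex did not stand out from the other cytosolic genes in their fold changes. All 8 (Eprs, Mars1, Lars, Iars, Kars, Rars, Dars and Qars) had a log2 fold change above 0, with a median of 0.09 and a range from 0.02 to 0.24. The 12 genes outside the complex had a median of 0.09 and a range from -0.05 to 0.25, with 11 above 0. By fold, the cytosolic class I genes had a median of 0.10 (n = 9) and the class II genes a median of 0.07 (n = 10), with Eprs, which holds both folds, left out. M92KO replicate 1 was the lowest of the M92KO libraries in 7 of the 8 genes of the complex and in 6 of the 12 cytosolic genes outside it. This library was the lowest in 13 of all 20 cytosolic genes (65%) and in 10 of the 17 mitochondrial genes (58.8%), against 38.3% of all genes tested.

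The cytosolic gene was set against the mitochondrial gene for the same amino acid in 18 pairs over 17 amino acids. The cytosolic log2 fold change was the higher in 16 pairs, with a median difference of 0.11 on the log2 scale, and the exceptions were Cars with Cars2 and Rars with Rars2. The ratio of their counts within a library, which needs no scaling between libraries, was higher in every M92KO than in every WT library in 3 pairs and lower in 0. No share over ratios of other genes was computed, so these counts of pairs have no background beside them. The pairs are also not independent, since Eprs and Fars2 each stand in more than a single pair. For methionine (Mars1 over Mars2) the ratio was 8.26, 8.61 and 8.22 in WT and 11.4, 9.03 and 8.83 in M92KO muscle. For isoleucine (Iars over Iars2) it was 1.11, 1.02 and 1.05 in WT and 1.15, 1.20 and 1.14 in M92KO muscle. For histidine (Hars over Hars2) it was 1.15, 1.15 and 1.18 in WT and 1.19, 1.25 and 1.38 in M92KO muscle. The nearest WT and M92KO libraries lay close together in these 3 pairs. The pair for serine (Sars over Sars2), with a ratio from 7.63 to 9.15 in WT and from 8.93 to 10.9 in M92KO muscle, overlapped.

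ATF4 binds with C/EBP proteins at the C/EBP-ATF response element, and its letters TGATGNAA were searched on both strands of RefSeq promoters (GRCm38.p6, 250 bases before to 50 after the gene start). The element was found in 5 of the 27 members with a promoter entry (18.5%), against 1219 of 27024 genes of the count table (4.51%). Those 27024 include genes that did not pass the filter on low counts, unlike the members, so the shares are not strictly alike. All 5 members are cytosolic, and an element of each is shown so that the matches and their flanks can be compared. Each line gives 30 bases on the strand of the gene with the match in capitals. The windows lie at chr4:129189895-129189924 (plus strand) for Yars, chr6:55037960-55037989 (plus) for Gars, chr8:111033840-111033869 (plus) for Aars, chr13:49682126-49682155 (plus) for Iars and chr15:11399655-11399684 (minus) for Tars.
Yars: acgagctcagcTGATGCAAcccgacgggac
Gars: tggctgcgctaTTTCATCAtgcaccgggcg
Aars: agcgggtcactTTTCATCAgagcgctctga
Iars: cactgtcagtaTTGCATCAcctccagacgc
Tars: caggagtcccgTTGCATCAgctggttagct

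The match reads along the gene in Yars and on the other strand in the other promoters. The 5 genes with the element had a median log2 fold change of 0.10 (range 0.06 to 0.14), the 8 cytosolic genes with a promoter entry but no match had a median of 0.09, and the 7 without an entry had a median of 0.07. None of the 5 was among the 4 cytosolic genes with an unadjusted p-value under 0.05, but Yars, Aars and Iars were under it without M92KO replicate 1 and with offsets for GC content and length. A match is a run of letters and not a measured binding site.

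The genes around the synthetases in translation and amino acid sensing gave 5 of 98 higher (5.10%, against 5.47% of all genes tested) and 2 of 98 lower (2.04%, against 6.92%) at an unadjusted p-value under 0.05, with a median log2 fold change of 0.04. Of the 3 scaffold genes of the multi-synthetase complex, 0 passed in either direction, with log2 fold changes of 0.19 for Eef1e1, 0.17 for Aimp2 and 0.04 for Aimp1. Of 9 synthetase-like and proofreading genes, 1 was higher, Dtd1, which removes D-amino acids from tRNA (log2 fold change 0.28, SE 0.12; adjusted p = 0.388). Of 4 genes for mitochondrial glutaminyl- and formylmethionyl-tRNA, 0 passed, with log2 fold changes of 0.01 for Gatb and 0.10 for Gatc, both subunits of the enzyme that stands in for a mitochondrial glutaminyl-tRNA synthetase.

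Of 23 genes for tRNA maturation and export, 2 were higher and 0 lower. Pop4, a subunit of RNase P, was at 15.4, 15.5 and 13.8 CPM in WT and 18.6, 17.2 and 17.01 CPM in M92KO muscle, without overlap (log2 fold change 0.24, SE 0.088; adjusted p = 0.337). The 11 cytosolic elongation factors and the 12 mitochondrial translation factors each had 0 in either direction, with medians of -0.08 and -0.0033. In these lists, Eef2k, the kinase that inhibits elongation factor 2, was at 0.20 (SE 0.10), Eef1a1 at -0.09 (SE 0.066) and Mtres1 at 0.12 (SE 0.076) on the log2 scale.

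Of 29 tested targets of the integrated stress response, the pathway through which ATF4 acts, 2 were higher and 2 lower, with a median log2 fold change of 0.03. Slc6a9, a glycine transporter, was at 5.603, 5.667 and 5.969 CPM in WT and 7.77, 7.11 and 6.88 CPM in M92KO muscle, without overlap (log2 fold change 0.34, SE 0.11; adjusted p = 0.287). Ddit3 was higher as well (0.36, SE 0.14; adjusted p = 0.373), with the exon overlap with Mars1 given above. Cebpb, a C/EBP transcription factor, was lower, at 48.2, 57.9 and 92.7 CPM in WT and 41.6, 31.1 and 42.7 CPM in M92KO muscle, without overlap (log2 fold change -0.79, SE 0.23; adjusted p = 0.255). Asns, the asparagine synthetase that ATF4 is known to induce, was lower too, at 2.01, 3.08 and 2.53 CPM in WT and 1.64, 1.98 and 1.68 CPM in M92KO muscle, without overlap (log2 fold change -0.52, SE 0.21; adjusted p = 0.374). The 4 genes at this threshold lay on both sides of 0. Among 7 genes of amino acid sensing, 0 passed, with log2 fold changes of 0.13 for Eif2s1 (SE 0.061), -0.20 for Eif2ak4 (SE 0.11), the kinase that senses uncharged tRNA, and -0.06 for its partner Gcn1 (SE 0.068).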

How the data were processed

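Total RNA of Gas muscle from 3 WT and 3 M92KO mice was made into libraries with a SMARTer kit per the labels, and the authors deposited raw read counts per gene symbol, without normalization. The builds GRCm38 and mm10 are named in the submitters' processing notes, while aligner, counter, annotation and strandedness are not given in the sources used here. The members and gene lists were chosen with earlier results of these data known. Genes were filtered with filterByExpr (minimum count 10, minimum total 15), normalized with TMM and tested with edgeR 4.0.16 (R 4.3.3; glmQLFit, glmQLFTest, no covariate), adjusted by Benjamini-Hochberg over 15788 genes. The fit was tested on simulated data. The p-values set the difference between the groups against the spread between libraries, each from a separate mouse. A floor of 3 counts corresponds to 0.0628 to 0.0916 CPM and covers counting error only. Values of every library are given for members with an unadjusted p-value under 0.05, members without overlap and an absolute log2 fold change of at least 0.2, Gars and Kars, and the 3 members of each compartment with the highest level, and for other lists, the 3 genes of lowest p-value are named; Cars and Asns were added after their values were seen. GENCODE M21 gave positions, lengths and 3′-UTRs of at least 20 bases, with 25731 symbols matched directly, 419 by synonym and all 37 members. Alternatives were DESeq2 1.42.0, its size factors in edgeR, other filters, offsets for GC content and length (lowess span 0.3), quantile normalization with log2 of the value plus 1 and limma 3.58.1, which follows the authors' own steps, a replicate block, and leaving out each library. The fit on genes with a GC content and the counts of genes without overlap that leave out M92KO replicate 1 were added after seeing the data. Replicate numbers come from the labels. Protein sequence motifs were not analysed here, and single values of some genes under these rules and 1 promoter match are not reported here. Figures (matplotlib 3.10.9) and tables (pandas 2.3.3, numpy 2.4.6, scipy 1.17.1) came from Python 3.11.15.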

Additional observations from a re-analysis of the deposited data

How the results depend on the processing

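The median log2 fold change of the cytosolic genes stayed between 0.077 and 0.11 over all alternatives, with 17 to 19 of 20 genes above 0. That of the mitochondrial genes turned to 0.017 with offsets for GC content and length, and ranged from -0.014 to 0.058 when 1 library was left out, with 7 to 11 of 17 above 0. All genes with an adjusted p-value under 0.05 numbered 322 by DESeq2, 6 without a filter and 42 by limma on quantile-normalized values, and 0 to 399 when 1 library was left out. Those with an unadjusted p-value under 0.05 then numbered 1221 to 2984, with 531 to 1545 higher and 690 to 1439 lower. Cytosolic genes higher at that threshold numbered 9 with offsets and 1 to 7 when 1 library was left out. Mitochondrial ones numbered 0 by DESeq2, with offsets or without a filter, 2 by limma, and 0 to 1 when 1 library was left out. The pathway lists gave 8 higher by limma, and 2 to 6 higher and 1 to 3 lower when 1 library was left out. With offsets, the log2 fold change of Lars2 turned to 0.0048 and that of Iars2 to 0.017, and leaving out 1 library gave -0.079 to 0.082 for Lars2, -0.070 to 0.018 for Iars2 and -0.097 to 0.016 for Fars2. The causes were not tested. The fit on genes with a GC content and length but no offsets, which was added after seeing the data, moved none of the counts of members.

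Same-numbered WT and M92KO libraries had correlated deviations of 0.0778, 0.0378 and 0.0148, none above 0.1. WT replicates 1 and 2 correlated best with the M92KO replicate of the same number, and WT replicate 3 with M92KO replicate 2 (0.0383). Whether same-numbered libraries shared more than a number was not tested. With the replicate block, 2 genes passed the adjusted threshold, 3 cytosolic and 0 mitochondrial genes were higher at an unadjusted p-value under 0.05, and the pathway lists had 3 higher. With standard errors of 0.059 to 0.12 on the log2 scale for members, differences of the size seen in most of them were not resolved by 3 mice a group.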
